A study of Mus musculus with 9 samples.

Results

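The response of RAW264.7 cells to lipopolysaccharide (LPS) was described across gene functions from 6 RNA-seq libraries, 3 of untreated control cells and 3 of cells given LPS at 1 µg/ml for 6 h. RAW264.7 is an established mouse macrophage line, labelled WT in genotype and Ascites in tissue, and no allele or other agent separates the groups. The study also holds 3 libraries of cells given LPS with carbon dots made from the plant Glycyrrhiza (G-CDs), and those 3 are used here only in an alternative fit. Of 54532 genes listed, the 11262 with a value of at least 1 FPKM (reads scaled to gene length and to library size) in at least 3 of the 6 libraries were tested. The labels do not say that replicates came from separate cultures, so the p-values measure the spread between these libraries, which may be technical.

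LPS, a glycolipid that coats Gram-negative bacteria, is taken up by Cd14 and sensed by Toll-like receptor 4 with its partner Ly96 (MD-2). The adaptor Myd88 leads to NF-κB and the MAP kinases, which switch on cytokine and chemokine genes. The adaptor Ticam1 (TRIF) leads to Irf3 and interferon-beta, and secreted interferon then acts back on the cell through STAT proteins.

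The cells expressed macrophage genes. All 14 macrophage markers reached 1 FPKM in some library, and their summed level was 3090 to 4398 FPKM in control and 4408 to 4616 FPKM in LPS libraries, with Cd14 alone going from a mean of 436 to 2292 FPKM. Of the markers tested, 4 rose, among them Cd14 and the receptor gene Adgre1 (F4/80), and 3 fell, among them Csf1r and Lyz2. Of the markers of T cells, B cells, neutrophils, dendritic cells, fibroblasts, epithelium, endothelium and mast cells, only Lck reached 1 FPKM, at 0.783, 1.12 and 1.40 FPKM in control and 3.58, 3.26 and 3.78 FPKM in LPS libraries. Adgre1 and Lck were named after their values were seen. The libraries held 14752400 to 16933068 reads on genes. The control libraries were the less alike, with Pearson's r across genes of 0.938 to 0.969 and a median replicate SD of 0.243 on the log2 scale, against 0.988 to 0.989 and 0.0852 for LPS. Control replicate 1 stood apart by its mitochondrial transcripts, which took 0.25% of its reads and between 1.58% and 2.09% of the reads of the other 5 libraries. Control replicate 3 stood apart by gene length, lying 0.184 above its group mean on the log2 scale in the 2254 shortest genes and 0.22 below it in the 2252 longest, while the LPS libraries stayed within 0.03. The part of these differences in the results was not tested beyond fits that left out each library or removed the length trend between replicates. The latter called 4727 genes, against 4137 in the main fit.

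Values were compared on the log2(FPKM + 1) scale with limma, and a gene was called at a Benjamini-Hochberg adjusted p under 0.05 over all 11262 genes. Fold changes are on this scale, which understates the change of genes with low values, and are given with their standard errors. In lists of FPKM values, the control libraries come first and then the LPS libraries, each in the order of replicates 1 to 3. The 6 values of each gene named as risen or fallen did not overlap between the groups. LPS changed 4137 genes (36.7% of those tested), with 2092 higher (18.6%) and 2045 lower (18.2%), and the libraries did not overlap in 3123 genes that were higher (27.7%) and 2873 that were lower (25.5%). The rises were larger than the falls. Of the rises, 841 exceeded 2-fold (7.47%), 305 exceeded 4-fold (2.71%) and 59 exceeded 16-fold (0.524%), whereas 568 falls exceeded 2-fold (5.04%), 48 exceeded 4-fold (0.426%) and 0 exceeded 16-fold. The median change was 0.84 among called rises and -0.77 among called falls. Leaving out LPS replicate 1, 2 or 3 lowered the number called to 2583, 2592 and 2669, whereas leaving out a control library gave 4247 to 4580. The model takes a common variance for both groups, so a fit without an LPS library rests more on the wider spread of the control libraries. The part of this in calls lost without LPS replicate 1, 2 or 3, here and below, was not tested.

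**Figure D1:**
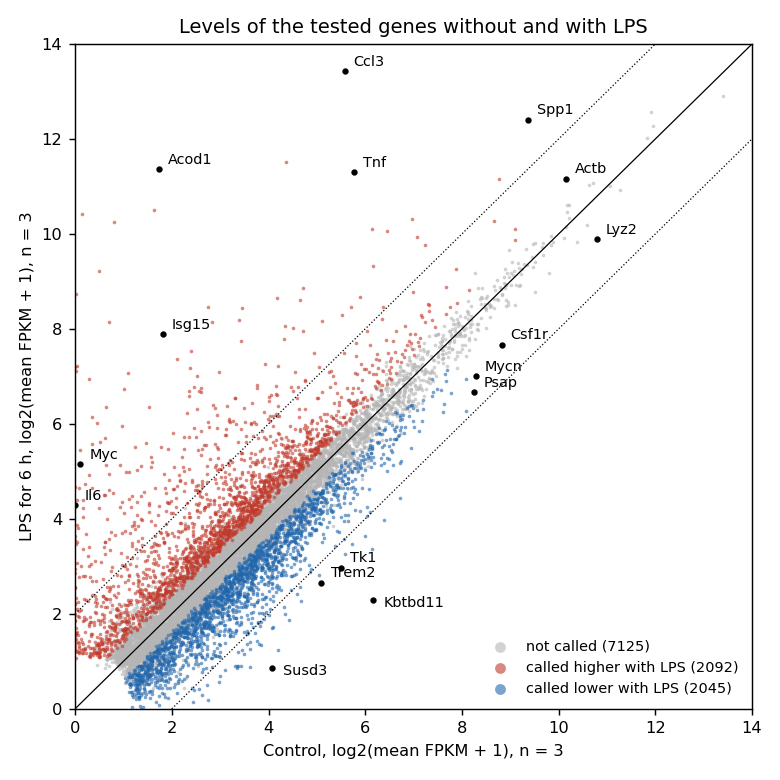
Level of each of the 11262 tested genes, as log2(mean FPKM + 1) over 3 control libraries (horizontal axis) and over 3 LPS libraries (vertical axis), with called rises in red, called falls in blue and the remaining genes in grey. The solid line marks equal levels and the dotted lines a 4-fold difference, beyond which 305 called rises and 48 called falls lay.

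The rises filled a large share of the messenger RNA. The 305 genes that rose over 4-fold took 1.14% to 1.24% of reads in control libraries and 11.6% to 12% in LPS libraries, and the 59 over 16-fold took 0.0635% to 0.0778% and 4.76% to 5.03%. The 568 genes that fell over 2-fold went from 4.55% to 5.0% of reads down to 1.33% to 1.38%. These shares describe genes chosen on the same libraries. The largest difference in mean FPKM was that of Ccl3, followed by Spp1 (osteopontin, a secreted glycoprotein), which read 545, 646 and 774 FPKM and then 5217, 5622 and 5406 FPKM. The largest falls in mean FPKM included lysozyme (Lyz2), the growth factor receptor Csf1r and the transcription factor Mycn.

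Few genes crossed between silence and high expression. From under 1 FPKM in every control library, 263 genes reached at least 1 FPKM in every LPS library and 37 reached at least 10 FPKM, and in the other direction 266 genes went from at least 1 FPKM to under 1 FPKM and 1, Susd3, from at least 10 FPKM. Susd3, a sushi domain protein, read 18.8, 11.1 and 17.5 FPKM and then 0.867, 0.766 and 0.800 FPKM, and the deepest fall of all on the log2 scale was that of Kbtbd11, from 82.9, 73.1 and 55.5 to 4.32, 3.71 and 3.62 FPKM, with 24.8% of its exon bases in another annotated gene. Among the 509 genes with a control mean under 1 FPKM, which passed the filter through their LPS values, 60.7% rose, so this share is fixed in part by the filter. Among the 452 genes with a control mean over 100 FPKM, 8.85% rose and 10.2% fell.

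Scaling bears on the balance of rises and falls. The library sizes behind the deposited FPKM were 1.108 to 1.14 times the reads on genes in control and 0.929 to 0.936 times in LPS libraries. The median change of all tested genes was 0.018, and TPM, which gives every library the same sum, moved it to -0.209, with 1214 genes higher and 3322 lower. Each of the 66 gene lists compared here was also read under TPM and quantile scaling. The median of 19 lists changed sign under TPM, all from above 0 to below it. These were cytokine receptors, lineage regulators, translation factors, endoplasmic reticulum chaperones, sterol synthesis, cholesterol efflux, autophagy, proteasome, integrins, inflammasome, the Bcl2 family, chromatin modifiers, the TGF-beta, Notch, PI3K and Src pathways, zinc finger genes, solute carriers and tripartite motif genes. The largest median among these 19 was 0.25, of translation factors, and 8 of the 66 medians changed sign under quantile scaling, none of them of a list outside the 19. Of 43 lists with more called rises than falls, 19 had more falls than rises under TPM. These were the lists just named other than lineage regulators, cholesterol efflux, the Bcl2 family and solute carriers, and also the phagocyte oxidase, metal transport, cell cycle inhibitors and the circadian clock.

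**Figure D2:**
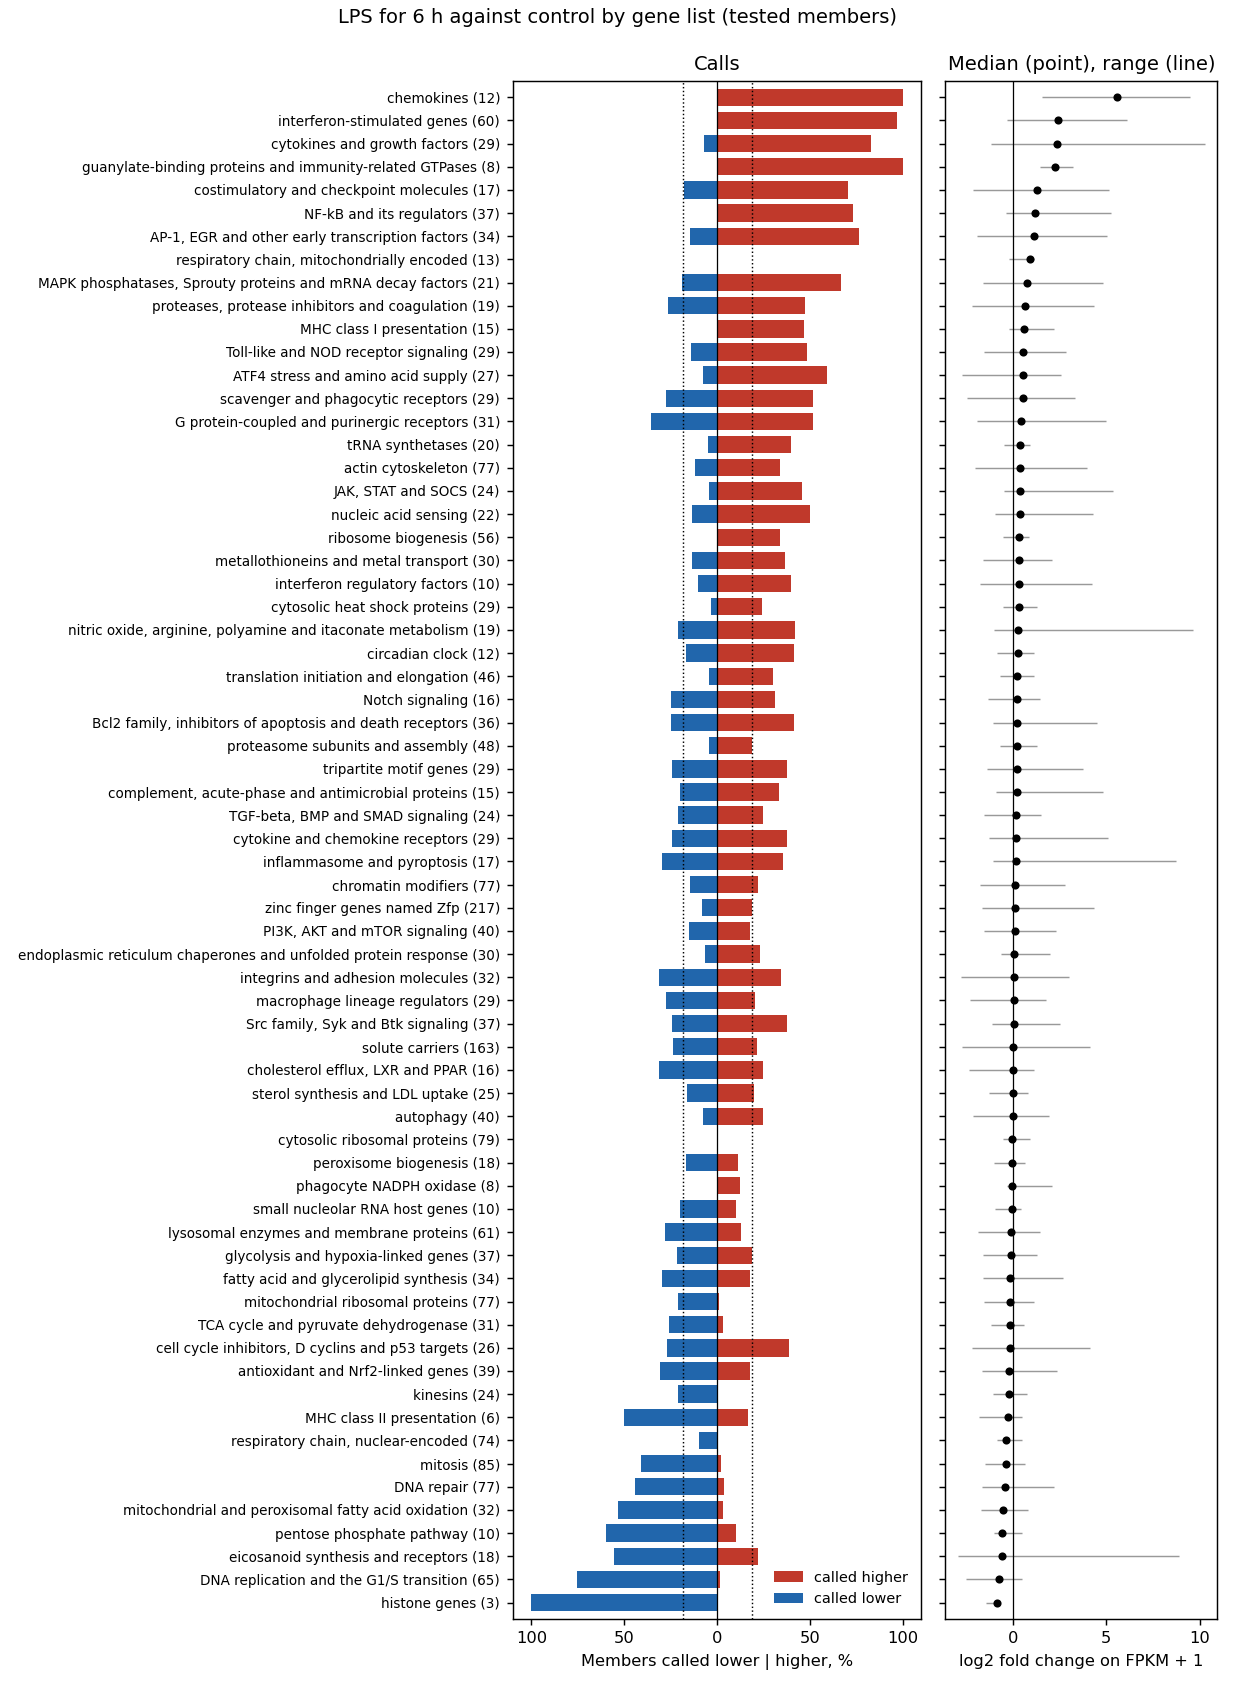
Share of the tested members of each gene list called higher (red, to the right) and lower (blue, to the left) with LPS, in percent, with the number of tested members in parentheses, and beside it the median log2 fold change (point) and its range (line). The dotted lines mark the shares over all genes tested, 18.6% higher and 18.2% lower, and chemokines lie at the top with 12 of 12 higher.

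Chemokines, which draw leukocytes to a site of infection, were called higher in all 12 of the 25 that passed the filter on low values, with a median log2 fold change of 5.57. Of these, 8 were under 1 FPKM in every control library and passed through their LPS values, which fixes their direction, and 4 were at or above 1 FPKM in every control library and rose too. Ccl3 (MIP-1α) read 21, 57.0 and 62.0 FPKM in control and 10190, 12010 and 10920 FPKM in LPS libraries (8.0 ± 0.40). Ccl4 (MIP-1β), its neighbour on chromosome 11, went from 16.3, 18.4 and 23.5 to 2953, 2998 and 2869 FPKM (7.19 ± 0.16). The LPS values of both lay far above every control value, and Ccl3 reached a higher level than any other called gene. Ccl22, a ligand of the T cell receptor Ccr4, went from at most 0.275 FPKM in control to 120, 124 and 125 FPKM, here in ascending order. Cxcl10, a ligand of Cxcr3 whose gene responds to interferon, rose by 5.79 ± 0.14.

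Of 29 tested cytokines 24 rose and 2 fell, with a median of 2.39. The filter fixed part of this, since 13 were under 1 FPKM in every control library and passed through their LPS values. Of the 14 at or above 1 FPKM in every control library 9 rose and 2 fell, and the falls were 1 without control replicate 1 or 3 or LPS replicate 1, 2 or 3. Tnf, the early inflammatory cytokine, read 34.0, 58.9 and 67.1 FPKM and then 2539, 2449 and 2549 FPKM (5.59 ± 0.26, limma adjusted p = 7.7e-06). Il1b had 1 read in the control libraries together and 418, 432 and 420 FPKM with LPS, a ratio of 43300 with a counting interval of 7770 to 1710000. Il1a went from 3 reads in all to 146, 159 and 138 FPKM, a ratio of 5200 (1780 to 25200). The antagonist of their receptor, Il1rn, rose beside them from 0.665, 1.32 and 1.46 to 136, 139 and 128 FPKM. Csf2 (GM-CSF) had 0 reads in control and 139, 166 and 130 FPKM with LPS, at least 2070-fold higher when 3 reads over the control group are taken as the floor. Lif, a cytokine of the interleukin-6 family, went from 2 reads to 145, 137 and 131 FPKM. Il27, which steers T cells and is a heterodimer with Ebi3, reached 282, 276 and 284 FPKM from 0.522, 0.288 and 1.04 FPKM (7.47 ± 0.17). Il6 and Ifnb1 (interferon-beta), named for their place in the pathway after their values were seen, had 0 control reads. Il6 reached 17.1, 20.7 and 17.7 FPKM with LPS, at least 802-fold higher, and Ifnb1 reached 10.1, 10.1 and 11.8 FPKM, at least 144-fold higher, so that at 6 h the interferon-beta transcript lay far below that of Tnf per length. The falls were growth factors of vessels and mesenchyme. Vegfb went from 25.4, 29.9 and 42.8 to 16.1, 11.9 and 13.4 FPKM (-1.16 ± 0.21), and Pdgfa fell by 0.57 ± 0.17, a call lost without control replicate 1 or 3 or LPS replicate 1, 2 or 3 and with a replicate block, with 26.1% of its exon bases in another annotated gene.

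**Figure D3:**
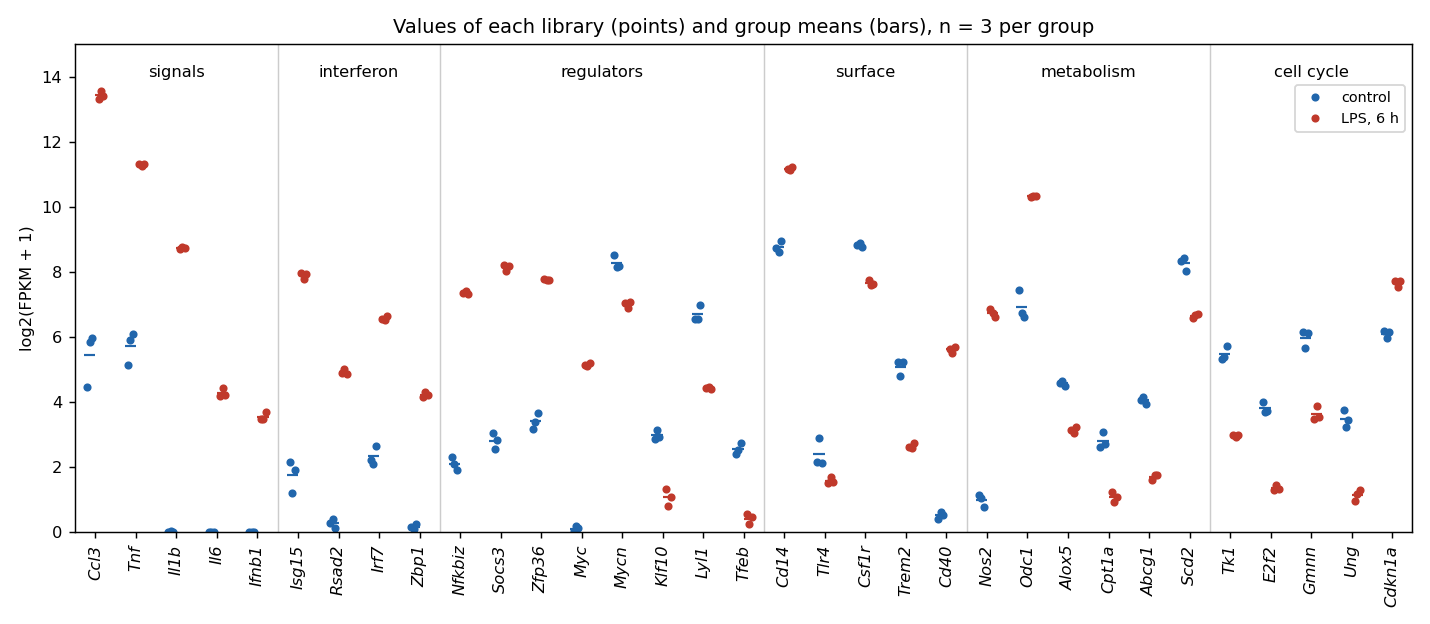
Values of 33 genes in each library as log2(FPKM + 1), with control libraries in blue, LPS libraries in red and bars for the means of 3, grouped by function. The 3 LPS points lie close together and apart from the control points in every gene shown, above them for the secreted signals and interferon-stimulated genes and below them for Mycn, Klf10, Lyl1, Tfeb, Tlr4, Csf1r, Trem2, Alox5, Cpt1a, Abcg1, Scd2, Tk1, E2f2, Gmnn and Ung.

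Transcripts of NF-κB and its regulators rose, with 27 of 37 members higher, 0 lower (1 at an unadjusted p under 0.05 and 0 with limma's voom on reads recovered from the FPKM) and a median of 1.21. Leaving out control replicate 2 or 3 gave 1 lower, and TPM 3 lower and 23 higher. The largest rises were of genes that act back on the pathway. Nfkbiz (IκBζ, a nuclear cofactor needed for secondary response genes) went from 3.95, 3.25 and 2.80 to 164, 168 and 158 FPKM (5.25 ± 0.13). Tnfaip3 (A20, a ubiquitin-editing inhibitor) went from 3.37, 2.95 and 2.04 to 44.2, 43.6 and 41.5 FPKM, and Zc3h12a (Regnase-1, an RNase that degrades cytokine messages) rose by 3.57 ± 0.16. Traf1, an adaptor of TNF receptors, rose by 3.74 ± 0.10. Nfkbia (IκBα, the inhibitor that holds NF-κB in the cytoplasm), named after its value was seen, stood at 66.4, 67.8 and 77.9 FPKM before and at 644, 636 and 653 FPKM after LPS. Of the subunits, also named after their values were seen, Rel rose by 2.60 ± 0.14 and Nfkb1 by 2.57 ± 0.15, and Rela (p65), already at 17.9, 23.5 and 26.0 FPKM, by 0.48 ± 0.15, a call lost without control replicate 2, without LPS replicate 1, 2 or 3 and under TPM and quantile scaling.

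The other brakes on signaling followed. Of phosphatases of MAP kinases, Sprouty proteins and mRNA decay factors, 14 of 21 rose and 4 fell. Dusp5, a nuclear phosphatase of ERK, went from 1.90, 2.23 and 1.57 to 83.8, 76.8 and 83.2 FPKM, though 22.1% of its exon bases overlap another annotated gene. Zfp36 (tristetraprolin, which binds AU-rich elements of cytokine messages and marks them for decay) went from 7.97, 9.46 and 11.7 to 218, 214 and 214 FPKM, whereas its relative Zfp36l2 fell from 31.7, 40.7 and 27.4 to 10.6, 9.54 and 10.9 FPKM. Socs3, the inhibitor of the interleukin-6 receptor, rose from 7.27, 4.90 and 6.06 to 297, 258 and 292 FPKM (5.33 ± 0.15). Cish, of the same family, had 1 control read and reached 3.43, 3.98 and 3.60 FPKM.

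A κB site is the DNA element bound by NF-κB. It was looked for as GGGA, any base and TTTCC on either strand in the 300 bases around gene starts (250 before and 50 after) that RefSeq gives on GRCm38.p6, which were matched by symbol for 7914 genes tested. This form was rare. It was present in 31 of the 7914 (0.392%), in 3 of the 209 matched genes that rose over 4-fold (1.44%) and in 2 of the 434 that fell over 2-fold (0.461%). The 250 bases before the start of Cxcl2, a neutrophil chemokine, and of Nfkbia are shown because they hold it, with the match in capitals.
Cxcl2 (chr5:90903649-90903898, plus strand): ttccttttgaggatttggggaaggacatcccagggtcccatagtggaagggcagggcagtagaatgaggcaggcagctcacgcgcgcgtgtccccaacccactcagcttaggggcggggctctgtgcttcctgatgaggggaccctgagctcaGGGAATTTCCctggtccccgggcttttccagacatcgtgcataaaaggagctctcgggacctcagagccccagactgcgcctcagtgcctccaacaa
Nfkbia (chr12:55492648-55492897, minus strand): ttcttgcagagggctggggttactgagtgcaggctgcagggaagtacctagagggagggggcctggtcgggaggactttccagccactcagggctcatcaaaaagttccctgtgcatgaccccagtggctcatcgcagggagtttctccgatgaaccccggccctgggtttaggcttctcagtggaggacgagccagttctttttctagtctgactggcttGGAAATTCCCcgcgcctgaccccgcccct
Both are written 5′ to 3′ on the strand of the gene. A match of letters is a description and not a measured binding site.

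The receptors and adaptors that sense bacteria moved in both directions. Of 29 members of Toll-like and NOD receptor signaling, 14 rose and 4 fell. Cd14, the LPS-binding co-receptor and 1 of the most abundant transcripts, went from 427, 387 and 493 to 2287, 2225 and 2364 FPKM (2.40 ± 0.17). Irak2, a kinase downstream of Myd88, went from 4.93, 5.4 and 5.17 to 43.8, 41.2 and 44.3 FPKM, and Irak3, the inactive kinase that restrains it, from 2.55, 3.21 and 3.41 to 16.1, 18 and 15.2 FPKM. Tlr1 rose by 2.05 ± 0.14, and Tlr2, its partner, named after its value was seen, from 57.7, 68.7 and 64.7 to 139, 142 and 142 FPKM. Tlr4 itself was low and fell, from 3.47, 6.41 and 3.38 to 1.85, 2.24 and 1.92 FPKM (-0.81 ± 0.22, limma adjusted p = 0.025), a call lost without LPS replicate 1, 2 or 3. Tlr13, a sensor of bacterial ribosomal RNA, fell from 5.29, 6.28 and 4.06 to 1.11, 1.04 and 1.23 FPKM. Between the adaptors, again named after their values were seen, Ticam1 rose by 2.05 ± 0.19 and Myd88 by 0.63 ± 0.16, the call of Myd88 being lost under TPM and without LPS replicate 1, 2 or 3. Ly96 read 2.72, 3.34 and 3.41 FPKM and then 3.90, 4.47 and 6.06 FPKM and did not pass the test (limma adjusted p = 0.062), though it did with a replicate block and among protein-coding genes alone. The 4 falls were 2 without LPS replicate 1, 2 or 3.

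Interferon-stimulated genes, which build the antiviral state, moved nearly all in 1 direction. Of 64 members, 60 were tested, 58 rose, 56 of them over 2-fold, and 0 fell (0 at an unadjusted p under 0.05 and 0 with voom, and 1 without control replicate 2, under TPM and under quantile scaling). Of the 60, 12 were under 1 FPKM in every control library and passed through their LPS values, so that their direction was fixed, and of the 45 at or above 1 FPKM in every control library 43 rose. Isg15, a ubiquitin-like modifier, went from 3.46, 1.32 and 2.75 to 247, 221 and 243 FPKM (6.13 ± 0.23). Oasl1, a translation inhibitor related to the 2′-5′ oligoadenylate synthetases, went from 10.5, 7.45 and 11.7 to 351, 338 and 345 FPKM. Rsad2 (viperin, an antiviral radical SAM enzyme) went from 0.221, 0.312 and 0.104 to 29.0, 31.5 and 27.8 FPKM. All 8 tested guanylate-binding proteins and immunity-related GTPases, which attack vacuoles of pathogens, were called higher as well, 5 of them under 1 FPKM in every control library, led by Gbp3 (3.21 ± 0.13) and Irgm1, which went from 3.40, 4.32 and 4.53 to 31.8, 32.9 and 31.7 FPKM.

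The regulators of this program changed unequally. Irf7, which amplifies interferon production, went from 3.70, 3.28 and 5.28 to 93.7, 90.1 and 99.9 FPKM, and Irf8 and Irf9 rose by 2.0 ± 0.10 and 1.52 ± 0.17. Irf3, the factor that is activated by phosphorylation, read 13.7, 11.4 and 16.1 FPKM and then 11.4, 9.81 and 10.9 FPKM (limma adjusted p = 0.13), and was called under TPM and without control replicate 2. Irf1 read 3.14, 2.67 and 3.74 FPKM and then 3.64, 4.15 and 3.72 FPKM (limma adjusted p = 0.25), and its groups overlapped. Those of Irf3 were apart by a small margin. The corepressor Irf2bp2 fell from 15.4, 11.8 and 11.6 to 3.33, 2.65 and 3.09 FPKM, with 20.5% of its exon bases in another annotated gene. Of the JAK and STAT list, 11 of 24 rose, 2 of them fixed by the filter, and 1 fell. The falls were 2 without control replicate 1 and 0 without any other single library, and 2 under TPM. The list held Stat2 at 4.31, 4.41 and 3.20 FPKM before and 20.1, 18.7 and 19.1 FPKM after LPS. Sensors of nucleic acids rose in 11 of 22 cases and fell in 3, and the falls numbered 1, 0 and 1 without LPS replicates 1, 2 and 3 and 6 under TPM. Ifih1 (MDA5, a sensor of viral RNA) went from 1.47, 1.38 and 1.22 to 43.8, 46.3 and 43.1 FPKM, and Zbp1, a sensor of Z-form nucleic acid, from at most 0.191 to 16.8, 18.8 and 17.5 FPKM. Mavs, the adaptor shared by the RNA sensors, fell by 0.49 ± 0.11, a call lost without LPS replicate 1, 2 or 3.

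The interferon-stimulated response element (ISRE) is bound by complexes of STAT and IRF proteins. The letters GAAA, any 2 bases and GAAA were found in 249 of the 7914 matched promoters (3.15%) and in 37 of the 209 of rises over 4-fold (17.7%). Among the matched promoters of the interferon list 20 of 48 held them (41.7%), and the list was itself compiled from known interferon targets. Isg15, with 3 overlapping matches, and Rsad2, with a match on the opposite strand, are shown, the matches in capitals.
Isg15 (chr4:156200819-156201068, minus strand): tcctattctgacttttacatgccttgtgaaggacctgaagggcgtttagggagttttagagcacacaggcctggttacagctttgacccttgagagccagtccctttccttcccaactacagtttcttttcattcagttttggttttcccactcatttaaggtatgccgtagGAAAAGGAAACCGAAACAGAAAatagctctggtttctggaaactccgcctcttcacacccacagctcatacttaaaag
Rsad2 (chr12:26456453-26456702, minus strand): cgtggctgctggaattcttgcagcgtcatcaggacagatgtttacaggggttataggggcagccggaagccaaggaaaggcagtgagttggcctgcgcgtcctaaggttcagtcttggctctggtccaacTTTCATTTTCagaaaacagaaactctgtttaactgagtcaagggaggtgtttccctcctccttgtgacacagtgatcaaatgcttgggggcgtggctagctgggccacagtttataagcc
Other elements in the promoters of rises over 4-fold were the AP-1 element TGANTCA, in 16.3% against 4.68% of all matched promoters, and the TATA box TATAAA, in 16.7% against 6.23%.

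Large rises also lay side by side in the genome. The tested genes between positions 173630917 and 173982744 of chromosome 1 (GRCm38) were 7 members of the Ifi200 family, Ifi209, Ifi207, Ifi204, Mndal, Ifi211, Ifi203 and Ifi202b, all of which rose by 2.06 to 5.56. Of their 50-base words Ifi211 shares 72.9%, Ifi209 35.1%, Ifi204 30.2% and Mndal 27.2% with transcripts of other genes, so the division of reads within this family is uncertain. A run of 5 genes on chromosome 11 (83525778 to 83706268) held Ccl5, Ccl9, Ccl3, Ccl4 and Wfdc17, a run of 4 on chromosome 19 (34550694 to 34650009) held Ifit2, Ifit3, Ifit3b and Ifit1, of which Ifit3 and Ifit3b share 51.2% and 45.0% of their words and are uncertain in the same way, and a run of 3 on chromosome 9 held Bcl2a1d, Bcl2a1a and Bcl2a1b. These runs were listed after the values were seen.

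Early transcription factors rose in 26 of 34 cases and fell in 5, and 6 of the rises were of genes under 1 FPKM in every control library, whose direction the filter fixed. Myc, the growth regulator, was nearly silent in control at 0.0196, 0.13 and 0.0827 FPKM and reached 34.1, 33.2 and 36 FPKM (5.04 ± 0.11). Its relative Mycn showed the opposite order and fell from 363, 280 and 288 to 130, 118 and 134 FPKM (-1.27 ± 0.15), so that Mycn stayed the more abundant of the pair in every library. Ier3, an early response gene tied to survival, went from 69.8, 84.8 and 103 to 1099, 1039 and 1047 FPKM. Atf3, a stress-induced repressor of cytokine genes, rose by 3.45 ± 0.11, and Egr1 by 3.31 ± 0.16. On the falling side were Klf10, a TGF-beta-induced repressor, from 6.30, 7.87 and 6.65 to 1.49, 0.745 and 1.12 FPKM, Klf4 by 1.23 ± 0.15 and Cebpa, a myeloid differentiation factor, by 1.06 ± 0.13.

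Of 29 regulators of the macrophage lineage, 6 rose (20.7%) and 8 fell (27.6%), against 18.6% and 18.2% over all genes. Lyl1, a blood-cell factor of the Tal1 family, went from 93.4, 93.3 and 124 to 20.4, 21.1 and 20.2 FPKM (-2.27 ± 0.14). Tfeb, the master regulator of lysosome genes, went from 4.24, 4.75 and 5.73 to 0.459, 0.192 and 0.376 FPKM. Zeb2 and Bcl6, a repressor of inflammatory genes, rose by 1.75 ± 0.19 and 1.71 ± 0.16.

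Chromatin modifiers showed a few large rises over a background of small changes, with 17 of 77 higher (22.1%) and 11 lower (14.3%), against 18.6% and 18.2% over all genes. Tet2, which oxidizes methylcytosine, went from 1.89, 2.66 and 1.07 to 19.4, 19.3 and 16.8 FPKM, and Kdm6b (JMJD3, a histone H3 lysine demethylase) from 6.2, 5.76 and 4.82 to 35.8, 32.4 and 33.3 FPKM. Hdac5, a class IIa histone deacetylase, fell from 12.4, 10.3 and 12.2 to 3.10, 2.53 and 2.65 FPKM. The number higher was 6, 7 and 7 without LPS replicates 1, 2 and 3, and the number lower was 22 without control replicate 3 and 7, 7 and 6 without LPS replicates 1, 2 and 3, and TPM gave 6 higher and 19 lower. Zinc finger genes named Zfp gave 41 higher and 18 lower of 217, and 14, 14 and 15 higher without LPS replicates 1, 2 and 3. Both shares were near those over all genes or below them, and TPM gave 13 higher and 37 lower. Falls were 10 without LPS replicate 2. The largest rises of the list were those of Zfp36, given above, and of Zfp811, which went from at most 0.0849 to 20, 19.5 and 20.4 FPKM.

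At the cell surface, costimulatory and checkpoint molecules rose in 12 of 17 cases and fell in 3. Of the rises 4 were of genes under 1 FPKM in every control library, whose direction the filter fixed, and of the 12 at or above 1 FPKM there 8 rose and 3 fell. Cd40, the receptor through which T cells license macrophages, went from 0.329, 0.534 and 0.429 to 48.8, 44.7 and 50.6 FPKM (5.10 ± 0.11). Lilr4b and Lilrb4a, immunoglobulin-like receptors of myeloid cells, rose by 5.15 ± 0.11 and 4.52 ± 0.20. They share 20.2% and 43.5% of their 50-base words with other genes, Lilr4b mostly with Lilrb4a and Lilrb4a mostly with Gm49339. Of the exon bases of Lilrb4a 35.9% lie in other annotated genes, so the division of reads among all of these is uncertain. The falls were Cd276 (B7-H3), from 10.6, 12.8 and 13.2 to 2.21, 1.66 and 2.22 FPKM, Vsir (VISTA) by 1.73 ± 0.14 and Havcr2 (TIM-3) by 1.64 ± 0.15. These 3 are known as inhibitory receptors or ligands. Havcr2 was under 1 FPKM in every LPS library, so the filter fixed its direction too.

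Scavenger and phagocytic receptors rose in 15 of 29 cases and fell in 8, with 5 of the rises fixed by the filter, and 9 rose and 8 fell of the 23 at or above 1 FPKM in every control library. Clec4e (Mincle, a receptor of mycobacterial glycolipid) went from 4.98, 10.5 and 11.2 to 93.7, 93.4 and 91.0 FPKM, and Msr1, a scavenger receptor of modified lipoproteins, from 3.57, 5.00 and 5.38 to 50.2, 53.9 and 52.4 FPKM. Trem2, a lipid-sensing receptor of tissue macrophages, fell from 36.5, 26.6 and 36.5 to 5.18, 4.98 and 5.72 FPKM (-2.43 ± 0.15), and Sirpa, the receptor of the signal Cd47, by 1.56 ± 0.12. G protein-coupled receptors and their regulators rose in 16 of 31 cases and fell in 11, with 7 of the rises fixed by the filter, and of the 23 at or above 1 FPKM in every control library 8 rose and 11 fell. The complement receptors C5ar1 and C3ar1 rose by 4.13 ± 0.11 and 3.32 ± 0.10. Hcar2, the niacin receptor, went from 0.111, 0.882 and 0.553 to 21.7, 21.5 and 22.2 FPKM. Gpr183, the receptor of oxysterols, fell from 20.1, 31.5 and 33.4 to 6.72, 6.70 and 6.58 FPKM, and Lpar5, of lysophosphatidic acid, by 1.89 ± 0.19.

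Cytokine receptors rose in 11 of 29 cases and fell in 7, but 4 of the rises were fixed by the filter, and of the 23 at or above 1 FPKM in every control library 6 rose and 7 fell. Tnfrsf1b (TNF receptor 2) went from 3.60, 4.51 and 4.52 to 147, 145 and 142 FPKM, and Il10ra, a chain of the receptor of the anti-inflammatory interleukin-10, from 15.8, 13.8 and 12.6 to 52.3, 51.4 and 52.1 FPKM. Csf1r, on which macrophages depend for survival, fell from 454, 469 and 430 to 212, 194 and 199 FPKM (-1.16 ± 0.13). Tnfrsf11a (RANK, the receptor of osteoclast formation) fell from 19.3, 15.8 and 12.5 to 6.00, 5.86 and 6.00 FPKM. The falls numbered 4 without LPS replicate 1, 2 or 3 and 11 under TPM.

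Adhesion molecules were divided almost evenly, 11 of 32 higher and 10 lower. Itga5, the fibronectin receptor chain, went from 19.0, 17.7 and 15.6 to 153, 138 and 153 FPKM, and Cd44, the hyaluronan receptor, rose by 2.06 ± 0.13. Plxnd1, a semaphorin receptor, fell from 35.3, 36.7 and 23.8 to 6.35, 5.96 and 5.98 FPKM, and Itgb5 by 1.70 ± 0.15. Among proteases and their inhibitors, 9 of 19 rose and 5 fell, against 5 and 5 of the 15 at or above 1 FPKM in every control library, with the urokinase receptor Plaur rising by 3.71 ± 0.12. The falls numbered 1, 2 and 1 without LPS replicates 1, 2 and 3. Serpinb8 fell by 2.19 ± 0.13 and kept its call in each of these fits.

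The presentation of antigen on MHC class I rose in 7 of 15 cases, and 0 members fell (0 at an unadjusted p under 0.05 and 0 with voom). Tap1, the peptide transporter, went from 5.87, 4.78 and 4.96 to 20.4, 20.7 and 22.2 FPKM, and Nlrc5, the transactivator of class I genes, rose by 1.83 ± 0.22. On the class II side, Ifi30 (GILT, a lysosomal thiol reductase) fell from 271, 219 and 325 to 77.7, 71.8 and 80.6 FPKM and H2-DMa, which loads peptides, from 5.23, 6.08 and 9.31 to 2.60, 1.63 and 1.59 FPKM. Only 6 of 14 class II members passed the filter, and the number called went from 4 to as few as 2 when a library was left out.

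In metabolism, genes of nitric oxide, arginine and itaconate synthesis held some of the largest rises. Acod1, which makes itaconate, went from 2.26, 2.73 and 1.95 to 2618, 2673 and 2582 FPKM. Nos2 (inducible nitric oxide synthase) went from 1.22, 1.09 and 0.713 to 114, 105 and 96.5 FPKM (5.73 ± 0.14). Gch1, the rate-limiting enzyme of its cofactor tetrahydrobiopterin, rose from 2.95, 2.29 and 2.40 to 10.8, 10.4 and 12 FPKM, whereas Spr and Qdpr, enzymes that complete and recycle that cofactor, fell by 1.00 ± 0.21 and 0.85 ± 0.17. Odc1, the first enzyme of polyamine synthesis, went from 173, 104 and 97.2 to 1265, 1294 and 1280 FPKM, and it shares 42.2% of its 50-base words with other transcripts. In all 8 of 19 rose and 4 fell.

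Eicosanoid genes fell in 10 of 18 cases and rose in 4. The rises were led by Ptgs2 (cyclooxygenase-2), from 1.99, 2.67 and 1.67 to 1445, 1587 and 1350 FPKM, and included Ptges (prostaglandin E synthase), which went from 0.515, 0.613 and 0.429 to 9.99, 9.56 and 9.12 FPKM, and the prostaglandin E receptor Ptger4 (0.62 ± 0.12). Of the leukotriene arm, Alox5 (5-lipoxygenase) fell from 23, 24.3 and 21.4 to 7.75, 7.21 and 8.34 FPKM and its activating protein Alox5ap from 39.4, 46.3 and 61.1 to 13.2, 15.7 and 14.8 FPKM. Hpgds, the hematopoietic prostaglandin D synthase, fell by 1.02 ± 0.17.

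Of glycolytic and hypoxia-linked genes, 7 of 37 rose and 8 fell, near the shares over all genes, whereas TPM gave 4 higher and 13 lower and quantile scaling 5 and 13. Without LPS replicates 1, 2 and 3 there were 5, 4 and 5 rises and 5, 3 and 4 falls. The glucose transporter Slc2a1 went from 105, 101 and 92.0 to 253, 238 and 254 FPKM, the regulator Pfkfb3 rose by 1.32 ± 0.18, and Hif1a, the hypoxia factor, from 17.3, 23.4 and 19.1 to 41.1, 47.6 and 42.9 FPKM. Pfkm, the muscle form of phosphofructokinase, fell from 13.5, 9.39 and 9.48 to 2.99, 2.84 and 2.94 FPKM. The pentose phosphate pathway fell in 6 of 10 cases, with Pgd (6-phosphogluconate dehydrogenase) at 99.1, 84.6 and 102 FPKM before and 58.9, 54.7 and 60.7 FPKM after LPS, and the falls numbered 3 and the rises 0, against 1, without LPS replicate 1, 2 or 3. TPM likewise called no rise.

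In the TCA cycle 8 of 31 members fell (25.8%, against 18.2% over all genes) and 1 rose, with 19 falls under TPM and 14 under quantile scaling and 2 rises without control replicate 1. Both Idh1, the cytosolic isocitrate dehydrogenase, and Idh2, its mitochondrial counterpart, fell, Idh1 from 26.4, 32.9 and 29.4 to 12.9, 13.2 and 11.5 FPKM and Idh2 by 0.75 ± 0.13. Dld, the shared dehydrogenase subunit of the pyruvate and oxoglutarate complexes, rose from 44.1, 45.3 and 46.9 to 69.8, 69.5 and 70.5 FPKM. The falls numbered 4, 4 and 5 without LPS replicates 1, 2 and 3. Fatty acid oxidation fell in 17 of 32 cases and rose in 1, with a median of -0.51. Cpt1a, which admits fatty acids to mitochondria, went from 5.13, 7.54 and 5.51 to 1.35, 0.893 and 1.10 FPKM (-1.73 ± 0.17). Hadh and Acaa1a, enzymes of the oxidation spiral in mitochondria and peroxisomes, fell by 1.21 ± 0.11 and 1.42 ± 0.19.

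Of fatty acid and glycerolipid genes, 6 of 34 rose (17.6%) and 10 fell (29.4%), against 18.6% and 18.2% over all genes, the falls numbering 6, 5 and 5 without LPS replicates 1, 2 and 3. Scd2, a desaturase, fell from 322, 343 and 257 to 95.3, 101 and 103 FPKM, and Agpat4, an acyltransferase of phospholipid synthesis, rose from 2.76, 2.33 and 2.97 to 21.2, 23.3 and 22.9 FPKM. Abcg1, which exports cholesterol to HDL and is a target of LXR, went from 15.7, 17.0 and 14.4 to 2.05, 2.39 and 2.35 FPKM (-2.35 ± 0.11), and Lipa, the lysosomal acid lipase, fell by 1.09 ± 0.12. Of genes of sterol synthesis and LDL uptake 5 of 25 rose (20%) and 4 fell (16%), near the shares over all genes, with 9 rises without control replicate 1 and 2, 3 and 3 rises and 3, 2 and 3 falls without LPS replicates 1, 2 and 3. TPM gave 0 rises and 7 falls.

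Antioxidant and Nrf2-linked genes fell in 12 of 39 cases (30.8%) and rose in 7 (17.9%), against 18.2% and 18.6% over all genes. Without LPS replicates 1, 2 and 3 there were 8, 7 and 8 falls and 4, 6 and 5 rises. TPM gave 4 rises and 18 falls. Sod2 (mitochondrial superoxide dismutase) went from 9.93, 10.8 and 13.5 to 64.5, 61.8 and 62.8 FPKM, and Slc7a11, the cystine importer, from 2.67, 3.80 and 2.34 to 16.4, 16.8 and 16.2 FPKM. Gpx1 (glutathione peroxidase 1) fell from 168, 185 and 303 to 98.4, 103 and 97.0 FPKM, and Mgst2 by 1.66 ± 0.14. Keap1, the repressor of Nrf2 studied by the authors and named after its value was seen, read 25.4, 26.5 and 24.7 FPKM and then 19.9, 17.9 and 20.5 FPKM (-0.38 ± 0.10, limma adjusted p = 0.028), a call lost with a replicate block and without LPS replicate 1, 2 or 3. Of the phagocyte NADPH oxidase, 1 of 8 members passed, the membrane subunit Cybb (gp91phox), which went from 74.2, 103 and 68.2 to 361, 359 and 332 FPKM. In that list 2 rose without control replicate 3, and TPM called 3 lower.

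Of 30 genes of metallothioneins and metal transport, 11 rose (36.7%) and 4 fell (13.3%), against 18.6% and 18.2% over all genes. Without LPS replicates 1, 2 and 3 the rises numbered 8, 7 and 8 and the falls 1, 1 and 3, and TPM gave 7 and 8. The iron importers Slc11a2 and Tfrc (transferrin receptor) rose, Tfrc from 61.0, 60.8 and 44.8 to 127, 139 and 130 FPKM, and Steap3, an endosomal iron reductase, fell by 1.6 ± 0.12. Among all 163 solute carriers tested, 35 rose (21.5%) and 39 fell (23.9%), near the 18.6% and 18.2% over all genes, and TPM gave 20 and 55. Without LPS replicates 1, 2 and 3 the rises were 22, 23 and 22 and the falls 21, 25 and 24. Slc15a3, a lysosomal peptide and histidine transporter, went from 5.20, 4.76 and 5.34 to 110, 101 and 108 FPKM, with 28.1% of its exon bases overlapping Tmem132a, and Slc5a3, the myo-inositol carrier, fell from 31.6, 28.6 and 13.4 to 3.63, 4.08 and 3.86 FPKM.

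Genes of the ATF4 stress response and amino acid supply rose in 16 of 27 cases and fell in 2, with a median of 0.56, and the falls were 1 without control replicate 3 or LPS replicate 1, 2 or 3 and 4 under TPM and quantile scaling. Chac1, which degrades glutathione, went from 2.83, 3.05 and 3.57 to 23.9, 22.4 and 24.9 FPKM, and Cth (cystathionine gamma-lyase) from 1.41, 1.26 and 1.13 to 9.46, 11.1 and 10.2 FPKM. Of endoplasmic reticulum chaperones 7 of 30 rose (23.3%, against 18.6% over all genes) and 2 fell, TPM giving 4 and 9 and quantile scaling 4 and 5, with Herpud1, of protein degradation there, from 29.7, 43.7 and 44.9 to 125, 131 and 129 FPKM and Ppp1r15a (GADD34) rising by 2.0 ± 0.12. Without control replicate 2 or 3 the falls were 5 and 4, and without LPS replicate 1, 2 or 3 they were 0.

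Cell cycle genes held many of the falls. Of 65 genes of DNA replication and the G1/S transition, all of which passed the filter, 49 fell, 24 of them over 2-fold, and 1 rose, against 18.2% and 18.6% over all genes. The median was -0.74, and 41 fell without LPS replicate 1, 2 or 3. Tk1 (thymidine kinase) went from 39.2, 40.4 and 52.3 to 6.96, 6.63 and 6.88 FPKM (-2.51 ± 0.14). E2f2, an activating E2F factor, went from 15, 11.8 and 12.3 to 1.47, 1.75 and 1.52 FPKM. Gmnn (geminin, which guards against repeated firing of origins) went from 70.0, 49.2 and 69.0 to 10.1, 13.8 and 10.8 FPKM, and Ung (uracil-DNA glycosylase) from 12.4, 8.41 and 10 to 0.939, 1.26 and 1.45 FPKM. Cdc6, which helps load the replicative helicase and was named after its value was seen, fell from 17.3, 14.2 and 13.1 to 4.40, 5.56 and 5.42 FPKM. Orc1 was the 1 rise (0.47 ± 0.14), a call lost without LPS replicate 1, 2 or 3, without control replicate 1 or 3 and under TPM and quantile scaling.

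Mitosis genes fell in 35 of 85 cases and rose in 2, with a median of -0.38. They fell in 24 without LPS replicate 1, 2 or 3 and in 50 without control replicate 3. Foxm1, the transcription factor of late cell cycle genes, went from 25, 26.7 and 22.2 to 9.56, 9.63 and 10.3 FPKM, and Psrc1, a spindle protein, from 11.8, 10.5 and 13.5 to 3.59, 3.90 and 3.31 FPKM. The rises, Ube2s and Cenpe, were 0.56 ± 0.15 and 0.50 ± 0.16, and both calls were lost without LPS replicate 1, 2 or 3 and under TPM, that of Ube2s also without control replicate 2 and that of Cenpe without control replicate 3 and under quantile scaling. DNA repair genes fell in 34 of 77 cases and rose in 3. Among them Ercc1, an excision nuclease subunit, rose from 2.37, 2.74 and 4.55 to 18.4, 15.8 and 20.1 FPKM. The falls numbered 19, 20 and 19 without LPS replicates 1, 2 and 3, and the rises 1 without any of them and under TPM.

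Inhibitors of the cell cycle, D cyclins and p53 targets showed no common direction, with 10 of 26 higher and 7 lower, with 12 lower without control replicate 3 and 11 under TPM. Gadd45b, a stress and growth arrest protein, went from 5.03, 4.18 and 5.62 to 103, 100 and 104 FPKM, and Cdkn1a (p21) from 71.6, 62.1 and 69.4 to 211, 185 and 211 FPKM. Cdkn2c (p18) fell by 1.48 ± 0.16, and Sesn1, a sestrin, from 25.1, 25.3 and 19.1 to 4.69, 3.87 and 4.41 FPKM. Bulk libraries cannot tell fewer cells in S phase from less RNA per cell.

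Promoters of cell cycle genes carry E2F sites (G1/S) or the CHR element beside CCAAT boxes (mitosis). The E2F letters TTTCCCGC were in 11 of 53 matched promoters of the replication list (20.8%), against 193 of 7914 (2.44%), in 6 of the 38 that were called (15.8%) and in 5 of the 15 that were not (33.3%). The CHR letters TTTGAA were in 45 of 70 mitosis promoters (64.3%) against 945 of 7914 (11.9%), in 59.3% of the 27 called and in 67.4% of the 43 not called. CCAAT was in 50 of the 70 (71.4%) against 39.4% of all. Each motif was counted on both strands. Examples from called genes, chosen after their values were seen, show these letters in capitals, E2F in Cdc6 and Gins3, and CCAAT and CHR in the cyclin genes Ccnb2 and Ccnf.
Cdc6 (chr11:98907901-98908150, plus strand): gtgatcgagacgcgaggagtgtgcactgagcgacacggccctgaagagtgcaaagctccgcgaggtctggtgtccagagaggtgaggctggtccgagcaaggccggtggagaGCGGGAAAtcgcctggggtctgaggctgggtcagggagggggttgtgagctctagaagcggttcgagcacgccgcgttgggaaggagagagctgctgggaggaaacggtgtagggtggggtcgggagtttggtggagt
Gins3 (chr8:95633309-95633558, plus strand): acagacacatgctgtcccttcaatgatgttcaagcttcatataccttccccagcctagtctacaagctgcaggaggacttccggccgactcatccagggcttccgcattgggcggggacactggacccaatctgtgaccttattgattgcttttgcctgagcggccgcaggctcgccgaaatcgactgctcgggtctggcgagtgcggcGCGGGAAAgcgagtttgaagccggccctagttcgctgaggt
Ccnb2 (chr9:70421555-70421804, minus strand): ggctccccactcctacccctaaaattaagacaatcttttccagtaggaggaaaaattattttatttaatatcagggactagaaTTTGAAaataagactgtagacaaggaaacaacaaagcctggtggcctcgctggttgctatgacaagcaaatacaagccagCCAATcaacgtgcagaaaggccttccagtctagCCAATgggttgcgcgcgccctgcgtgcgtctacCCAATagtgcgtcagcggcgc
Ccnf (chr17:24251410-24251659, minus strand): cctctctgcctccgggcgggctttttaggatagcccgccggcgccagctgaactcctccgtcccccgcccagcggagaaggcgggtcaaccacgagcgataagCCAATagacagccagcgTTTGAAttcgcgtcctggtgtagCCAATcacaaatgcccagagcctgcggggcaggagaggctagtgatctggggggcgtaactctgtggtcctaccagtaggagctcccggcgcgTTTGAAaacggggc
The RefSeq start of Cdc6 lies 350 bases from the gene start in the deposited table and that of Gins3 106 bases from it. Ccnf fell from 29.6, 29.4 and 28.5 to 16.1, 15.1 and 16.6 FPKM, and Ccnb2 from 53.5, 67.0 and 82.2 to 45.1, 42.4 and 46.4 FPKM, the call of Ccnb2 being lost without control replicate 2 and without LPS replicate 1, 2 or 3.

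**Figure D4:**
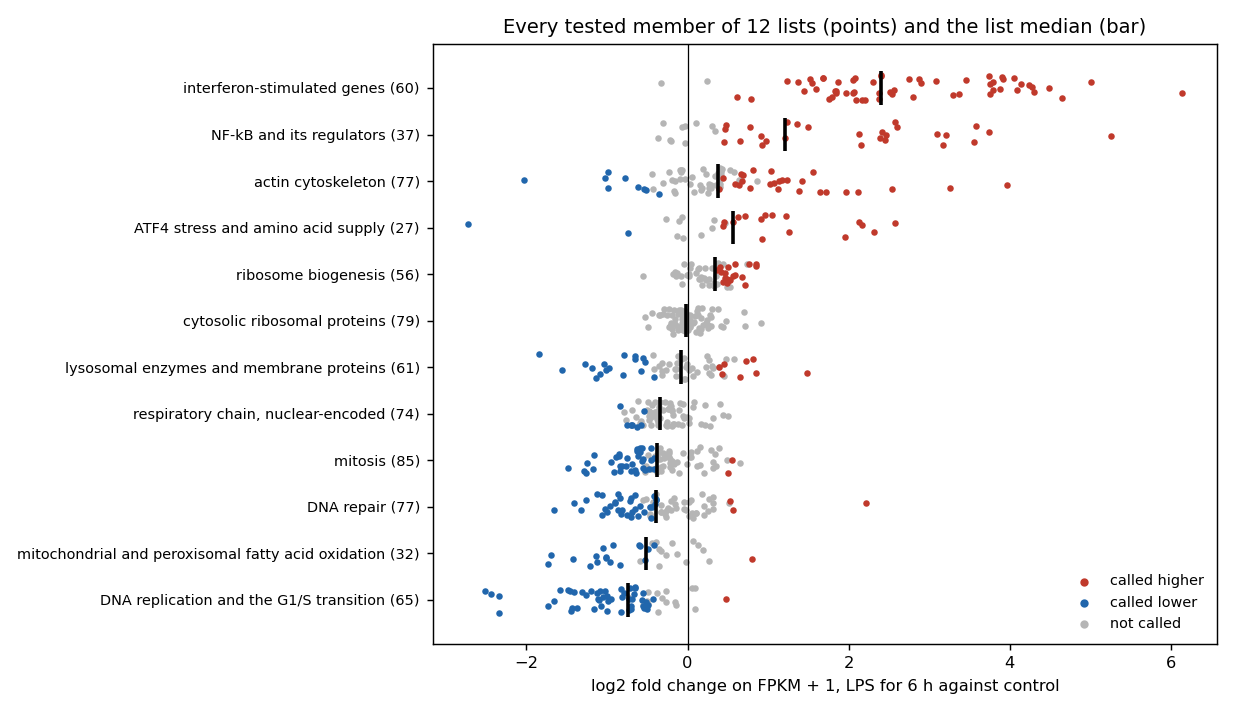
Log2 fold change on FPKM + 1 (LPS against control) of every tested member of 12 lists, 1 point per gene, with called rises in red, called falls in blue, other genes in grey and a bar at each list's median, the number of members in parentheses. Nearly all of the 60 interferon-stimulated genes lie to the right of 0 and nearly all of the 65 replication genes to the left, while the 79 cytosolic ribosomal proteins gather near 0.

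Genes of cell death moved both ways. Of the Bcl2 family, inhibitors of apoptosis and death receptors, 15 of 36 rose and 9 fell, and the falls numbered 3, 5 and 4 without LPS replicates 1, 2 and 3. The antiapoptotic genes Bcl2a1a, Bcl2a1b and Bcl2a1d rose by 4.52 ± 0.10, 3.46 ± 0.15 and 3.97 ± 0.17, and they share 69.0% to 79.5% of their 50-base words while 49.1% of the exon bases of Bcl2a1b lie in another annotated gene, so the division of reads among them is uncertain. The death receptor Fas went from 0, 0.326 and 0.312 to 9.96, 9.41 and 9.51 FPKM. Inflammasome genes rose in 6 of 17 cases and fell in 5, against 5 and 5 of the 15 at or above 1 FPKM in every control library, with Nlrp3 from 28.8, 20.7 and 15.3 to 260, 261 and 259 FPKM and Casp4 (caspase-11, the sensor of cytosolic LPS) from 1.09, 1.43 and 1.48 to 12.8, 15.2 and 12.6 FPKM. Panx1, a channel of ATP release, fell by 1.03 ± 0.12, and the falls were 3 without control replicate 2 or LPS replicate 1 or 2.

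Of Src family, Syk and Btk signaling 14 of 37 rose and 9 fell, with Lyn, a kinase of the Src family, rising by 1.56 ± 0.10. The PI3K and mTOR list gave 7 of 40 higher (17.5%) and 6 lower (15%), shares under the 18.6% and 18.2% over all genes. The TGF-beta list gave 6 of 24 (25%) and 5 (20.8%), and the Notch list 5 of 16 (31.2%) and 4 (25%). The circadian list gave 5 of 12 (41.7%) and 2 (16.7%), and tripartite motif genes 11 of 29 (37.9%) and 7 (24.1%). Smad6, an inhibitory SMAD, fell by 1.54 ± 0.14 and Pik3r2, a regulatory subunit of PI3K, by 1.54 ± 0.11, whereas Trim30a, an interferon-induced member, rose by 3.74 ± 0.13. Without LPS replicate 1, 2 or 3 the falls were 5, 5 and 6 in the Src list, 2, 3 and 2 in the PI3K list, 3 each in the TGF-beta list, 2, 2 and 3 in the Notch list and 4, 3 and 4 among tripartite motif genes. The rises were then 3, 3 and 4 in the TGF-beta list and 2 each in the Notch and circadian lists. Leaving out control replicate 1 or 2 also gave 3 falls in the TGF-beta list. TPM gave 14 falls in the Src list, 10 in the PI3K list, 3 rises in the TGF-beta list, 2 in the Notch list and 1 in the circadian list.

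Of 77 genes of the actin cytoskeleton, 26 rose and 9 fell, and under TPM 20 and 16. Marcksl1, a membrane-bound regulator of actin, went from 73.6, 56.5 and 79.2 to 1121, 1043 and 1126 FPKM (3.97 ± 0.17), and the small GTPase Rhoc from 26.3, 19.4 and 29.9 to 251, 226 and 264 FPKM. Actb, often used as a reference gene, rose from 999, 1087 and 1314 to 2284, 2290 and 2305 FPKM (1.03 ± 0.20), a call lost under quantile scaling and when genes of low values were kept. Myo1f, a myosin of phagocytes, fell from 15.6, 12.2 and 12.4 to 2.53, 2.96 and 2.09 FPKM, and Gsn (gelsolin, which severs filaments) by 1.03 ± 0.15. The falls numbered 5, 5 and 6 without LPS replicates 1, 2 and 3. Gapdh, another common reference, named after its values were seen, varied more within groups than between them, at 14.5, 54.4 and 119 FPKM and then 60.4, 17.3 and 20.1 FPKM (limma adjusted p = 0.51), and 27.2% of its 50-base words occur in other transcripts.

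Lysosomal genes fell in 17 of 61 cases (27.9%) and rose in 8 (13.1%), against 18.2% and 18.6% over all genes. The falls were 13, 14 and 13 without LPS replicates 1, 2 and 3. Psap (prosaposin) went from 401, 256 and 257 to 108, 94.0 and 101 FPKM, and Lgmn (legumain, a protease of antigen processing) from 147, 127 and 139 to 58.1, 54.7 and 56.4 FPKM. Cln3 rose by 1.48 ± 0.16, and the rises were 5 without control replicate 2, 12 without control replicate 3, 4, 4 and 5 without LPS replicates 1, 2 and 3 and 4 under TPM. Of antimicrobial and acute-phase genes 5 of 15 rose and 3 fell, against 3 and 3 of the 12 at or above 1 FPKM in every control library, with Saa3 (serum amyloid A) from 0.511, 0.518 and 0.625 to 40.1, 29.1 and 32.7 FPKM and Lcn2 (lipocalin, which captures bacterial siderophores) from at most 0.171 to 15.8, 15.6 and 14.7 FPKM. Lyz2 (lysozyme M) fell from 1539, 1665 and 2083 to 952, 914 and 977 FPKM (-0.88 ± 0.19), a call lost without LPS replicate 1, 2 or 3. The falls of this list were 1 without any of those libraries and 5 without control replicate 1.

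Autophagy genes rose in 10 of 40 cases (25%) and fell in 3 (7.5%), against 18.6% and 18.2% over all genes. There were 6 rises without LPS replicate 1, 2 or 3 and 5 falls without control replicate 3. TPM turned the balance to 4 higher and 10 lower, and quantile scaling gave 8 lower. The cargo receptor Sqstm1 (p62) went from 58.4, 48.4 and 58.8 to 212, 199 and 216 FPKM, and Atg9b fell by 1.28 ± 0.12. Of 48 proteasome genes 9 rose, which is 18.8% against 18.6% over all genes, and 2 fell, and TPM gave 3 higher and 7 lower. Psma6, a core subunit, went from 142, 136 and 200 to 356, 370 and 362 FPKM, and the rises were 20 without control replicate 3 and 4, 3 and 3 without LPS replicates 1, 2 and 3. The falls were 5 without control replicate 2 and 1 without control replicate 3 or LPS replicate 1, 2 or 3.

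Genes that build ribosomes rose in part, and the ribosomal proteins were not called. Of 56 ribosome biogenesis genes 19 rose and 0 fell (1 at an unadjusted p under 0.05 and 1 with voom), with Mybbp1a, a nucleolar Myb-binding protein, from 128, 127 and 102 to 217, 207 and 216 FPKM. The rises were 5, 5 and 6 without LPS replicates 1, 2 and 3, with 4 under TPM and 9 under quantile scaling. The falls were 1 without control replicate 2 and under quantile scaling, and 2 under TPM. Translation factors rose in 14 of 46 cases and fell in 2, with Eif4g2 from 150, 159 and 119 to 306, 321 and 312 FPKM. Their falls were 1 without LPS replicate 1, 2 or 3. Their rises were 4, 4 and 5 without LPS replicates 1, 2 and 3, and 23 without control replicate 3. They were 4 under TPM, where 6 fell, and 7 under quantile scaling, where 5 fell. Of tRNA synthetases 8 of 20 rose and 1 fell, of cytosolic heat shock proteins 7 of 29 and 1. Without LPS replicates 1, 2 and 3 these rises were 2, 3 and 2 and 2 each, under TPM 2 each and under quantile scaling 3 each, and the falls were 0 without any of the LPS replicates. Nars, the asparagine enzyme, went from 178, 131 and 140 to 282, 275 and 288 FPKM. The 79 cytosolic ribosomal protein genes had a median of -0.02, and limma called 0 of them in either direction (0 at an unadjusted p under 0.05 and 0 with voom). Leaving out control replicate 3 called 7 higher, leaving out control replicate 2 called 8 lower, TPM called 3 lower, and quantile scaling called 10 lower with a median of -0.26.

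The count for the respiratory chain varied with the libraries used. Of 74 nuclear-encoded members, 7 fell and 0 rose by limma (0 at an unadjusted p under 0.05, 0 with voom and 2 without control replicate 3), with a median of -0.34. The falls were 31 without control replicate 2, 3 without control replicate 3, 1, 0 and 1 without LPS replicates 1, 2 and 3, and 43 under TPM. Ndufs7, a subunit of complex I, read 67.3, 50.8 and 87.7 FPKM and then 37.9, 35.0 and 37.9 FPKM, a fold change of -0.84 ± 0.20 whose call was lost without LPS replicate 1 or 2. Mitochondrial ribosomal proteins fell in 16 of 77 cases and rose in 1, with Mrps6 from 32.8, 42.1 and 63.0 to 14.1, 15.3 and 14.1 FPKM. Of the exon bases of Mrps6 19.9% overlap Slc5a3, given above as a fall, and Gm49711, so reads of Mrps6 and Slc5a3 may mix. The share of falls, 20.8%, was near the 18.2% over all genes. The falls were 7, 7 and 10 without LPS replicates 1, 2 and 3 and 32 under TPM, and the rises were 6 without control replicate 3. The 13 proteins encoded in the mitochondrial genome gave 0 calls by limma (0 at an unadjusted p under 0.05 and 0 with voom). Their median of 0.91 came with the low control replicate 1, as in mt-Nd1, named after its values were seen, which read 218, 2409 and 2430 FPKM and then 2073, 2276 and 2090 FPKM. Without control replicate 1, 1 of the 13 was called lower, and without control replicate 2, 1 was called higher.

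By gene class, 9639 of the tested genes were protein-coding, with 1878 higher and 1920 lower. Of 159 long intergenic RNAs 33 rose and 29 fell, near the 18.6% and 18.2% over all genes. Of 154 antisense RNAs 35 rose and 18 fell, although reads of a gene and its antisense partner cannot be told apart where the counting ignored strand. Of 704 processed pseudogenes 52 rose and 25 fell, both below the shares over all genes. The 3 tested histone genes fell, and histone messages mostly lack the poly-A tail on which these libraries were selected. The lists together held 1088 of the 4137 called genes.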

How the data were processed

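RNA was extracted from RAW264.7 cells with TRIzol, messenger RNA was purified by its poly-A tail, and libraries were sequenced on an Illumina NovaSeq instrument. The authors deposited gene values as FPKM for 9 libraries, and 6 of these are compared here. The submitters' processing notes name GRCm38 and mm10, and the aligner and counter are not given in the sources used here. Multiplying FPKM by gene length gave whole reads, to within 0.05 reads, in 100% of values, and from them a depth of 14752400 to 16933068 reads on genes. Counting intervals and floors (3 reads over a group) cover counting error only.

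Genes with at least 1 FPKM in at least 3 of the 6 libraries entered a limma model (version 3.58.1, R 4.3.3) of log2(FPKM + 1), in which eBayes was run with its trend option, and were called two-sided at a Benjamini-Hochberg adjusted p under 0.05. The procedure was also run on simulated data in which all libraries had the same spread, unlike the control and LPS libraries here. No conclusion is drawn from that run. Tables were made in Python 3.11.15 (pandas 2.3.3). The gene lists and the rule for naming genes were chosen with earlier results of these data known. The rule took, without overlap between groups, the 4 largest called rises and falls of each list and the 15 largest each way over all genes. To these it added the 10 largest rises and falls in mean FPKM, the 10 highest genes switched on or off, and members of lists of factors, receptors or sensors that missed the threshold. For shared sequence, the longest transcript of a gene was divided into 50-base words, and the share found in transcripts of other genes is given where it reached 20%.

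Same-numbered control and LPS libraries deviated together weakly (correlations of 0.111, 0.143 and 0.129, each over 0.1), and no label says what a number stands for. Deviations were taken from group means, which pushes differently numbered libraries below 0, and those gave -0.14 to -0.00822. These values cannot settle whether the libraries were pairs. The calls given here ignore such pairs, which entered only an alternative. The alternatives were a model with these pairs as replicate block, another pseudocount, no filter and a stricter filter, TPM, median-of-ratios and quantile scaling, 9 libraries in 1 model, eBayes without trend, voom on the recovered reads, and fits that each left out 1 library. Removing the length trend between replicates and fitting protein-coding genes alone were chosen after seeing the data. Some genes that the naming rule took are not reported here.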

Additional observations from a re-analysis of the deposited data

How the results depend on the processing

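Of 4137 calls (2092 higher, 2045 lower), the 16 alternatives and 2 added after seeing the data left 2583 to 4727. TPM gave 1214 higher and 3322 lower, and a median above 0 in 26 of the 66 lists, against 45. Leaving out 1 library gave 2583 to 4580 calls, 1341 to 2357 of them higher and 1242 to 2223 lower. LPS replicates gave the low ends (2583, 2592 and 2669 without replicates 1, 2 and 3). The model takes a common variance for both groups, whose median replicate SD was 0.243 in control and 0.0852 in LPS libraries. A fit without an LPS library rests more on the control spread, and the part of this in the low ends was not tested. The replicate block gave 3963 calls, took the calls of Keap1 and Pdgfa, added that of Ly96 and changed no other call among the named genes. Of 205 called named genes, 192 kept the call in every fit that tested them, 10 of the named genes being left out of 1 fit, and the other 13 are marked in the text. Keeping genes of low values took 9 of these calls. Over 3770 pairs of a named gene and an alternative, 67 lost a call, 4 gained one and 1 changed sign. That 1 was the log2 fold change of mt-Nd1, at -0.174 without control replicate 1 and 1.562 without control replicate 3. Reads per library limit genes near the filter, and 3 libraries a group limit small changes in genes of any level.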
